A study of Mus with 10 samples.

Results

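The genes described are the 4 Janus kinases (JAKs), *Jak1*, *Jak2*, *Jak3* and *Tyk2*, and 5 protein tyrosine phosphatases that act against them, *Ptpn1*, *Ptpn2*, *Ptpn6*, *Ptpn11* and *Ptprc*. They were chosen by name, with earlier results of these data known. All 9 were found among the 24564 genes of the deposited count table and passed the filter on low counts, which kept 11463 genes. The cells were type 1 innate lymphoid cells (ILC1s), resident lymphocytes of the tissue, sorted from the livers of C57BL/6 mice that were 6 to 8 weeks old, of either sex. The 5 Ncr1+/+ libraries were from mice with intact *Ncr1*, the gene of the activating receptor NKp46, and the 5 Ncr1gfp/gfp libraries from mice in which *gfp* stands in place of *Ncr1* on both chromosomes. The labels name no treatment. The sort differed between the genotypes, since Ncr1+/+ ILC1s were gated on NKp46 protein and Ncr1gfp/gfp ILC1s on GFP, both as NK1.1+ CD49a+ CD49b- cells without lineage markers, and an effect of the gate and of the genotype cannot be told apart. The study speaks of RNA pools, and the sources do not say how many mice each library holds or whether libraries are from separate mice, so that p-values measure the spread between these libraries, which may be technical.

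JAKs are tyrosine kinases bound to the inner tails of cytokine receptors that have no kinase of their own. When a cytokine brings receptor chains together, the JAKs phosphorylate each other, the receptor and the STAT transcription factors, and tyrosine phosphatases remove those phosphates. In lymphocytes such as ILC1s, JAK1 and JAK3 serve the receptors for IL-2, IL-7 and IL-15, and JAK2 and TYK2 serve the receptor for IL-12. The counts measure transcripts, not protein or kinase activity.

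The libraries held between 15796253 and 22623133 counts, and the 9 genes together took between 0.584% and 0.662% of them. The targeted gene followed the labels, with 1913 to 2144 CPM (counts scaled to library size by TMM normalization) of *Ncr1* in Ncr1+/+ and 141 to 356 CPM in Ncr1gfp/gfp ILC1s. Liver ILC1 markers were present in every library, with a summed CPM of 3910 to 4171 over 7 genes in Ncr1+/+ and 3981 to 4243 in Ncr1gfp/gfp ILC1s. Of these, only *Itga1*, which encodes the gate marker CD49a, passed the test and was higher in Ncr1gfp/gfp ILC1s, with 928 to 1012 CPM against 732 to 805 CPM (log2 fold change 0.32, edgeR adjusted p = 0.000481). Lower without passing were *Rora* (log2 fold change -0.47, edgeR adjusted p = 0.0859), *Cxcr6* (-0.19), *Tbx21* (-0.13) and *Cd200r1* (-0.12). *Tnfsf10* (0.091) and *Klrb1c* (0.024) were higher without passing. Markers of T cells were higher in Ncr1gfp/gfp ILC1s. The 8 T cell markers summed to 461 to 579 CPM in Ncr1+/+ and 633 to 835 CPM in Ncr1gfp/gfp libraries. Most of this was *Cd3g*, with 442 to 554 CPM and 595 to 793 CPM. Without *Cd3g*, the other 7 T cell markers summed to 9.14 to 26.6 CPM in Ncr1+/+ and to 36.8 to 100.5 CPM in Ncr1gfp/gfp libraries, which was between 0.284% and 3.24% of the CPM of *Ptprc* in the same library. That ratio does not measure a share of cells. *Cd3e*, *Cd3g* and *Cd8a* passed the test among the 5 T cell markers tested. The 8 NK cell markers summed to 428 to 473 CPM in Ncr1+/+ and 476 to 542 CPM in Ncr1gfp/gfp ILC1s, of which only *Itgam* passed the test among 7 tested. The 8 hepatocyte markers summed to 135 to 178 CPM in Ncr1+/+ and 123 to 203 CPM in Ncr1gfp/gfp libraries. Most of this was *Trf*, with 131 to 146 CPM and 120 to 145 CPM. Hepatocyte markers other than *Trf* summed to 32.0 CPM in Ncr1+/+ replicate 1 and 58.4 CPM in Ncr1gfp/gfp replicate 3, and to 5.65 CPM or less in the other libraries. The 8 macrophage markers reached 66.5 CPM and the 7 B cell markers with counts listed 10.5 CPM in any library, neither with a tested marker past the threshold. The 8 endothelial markers reached 6.22 CPM with *Lyve1* at 0 counts and no tested marker past the threshold, and the 8 red blood cell markers 9.58 CPM with all 6 globin genes at 0 counts, likewise with none past it. The part of any of these cells in the results was not tested.

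All 9 genes were detected in every library, and by level per length 8 of them lay above at least 79.5% of the tested genes. Levels were compared between genes as RPKM, the CPM per kilobase of exon, with the exon lengths of the deposited table. *Ptprc*, which encodes CD45, the receptor-type phosphatase on the surface of all white blood cells, was first with 551 ± 35.9 RPKM (SD, n = 10 libraries), above 99.7% of the tested genes. *Jak1* followed with 238 ± 14.3 RPKM and was the leading kinase in every library. *Ptpn6*, which encodes SHP-1, had 121 ± 6.79 RPKM, *Jak2* 102 ± 8.07 RPKM, *Jak3* 69.3 ± 3.67 RPKM and *Tyk2* 51.3 ± 3.88 RPKM (SD, n = 10 each). *Ptpn1*, which encodes PTP1B, had 37.1 ± 2.42 RPKM and *Ptpn11*, which encodes SHP-2, 30.6 ± 2.48 RPKM. *Ptpn2*, which encodes TC-PTP, was last with 14.1 ± 0.748 RPKM, still above 56.6% of the tested genes.

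Neighbours in this order were apart by between 1.18-fold and 2.31-fold in their means, and 7 of the 8 neighbouring pairs did not overlap within either genotype. The exception was *Ptpn6* and *Jak2*, whose values overlapped in Ncr1+/+ ILC1s and did not overlap in Ncr1gfp/gfp ILC1s, where *Ptpn6* was above *Jak2* in every library. Across all 10 libraries *Ptpn6* was the higher of the pair in 9.

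**Figure D1:**
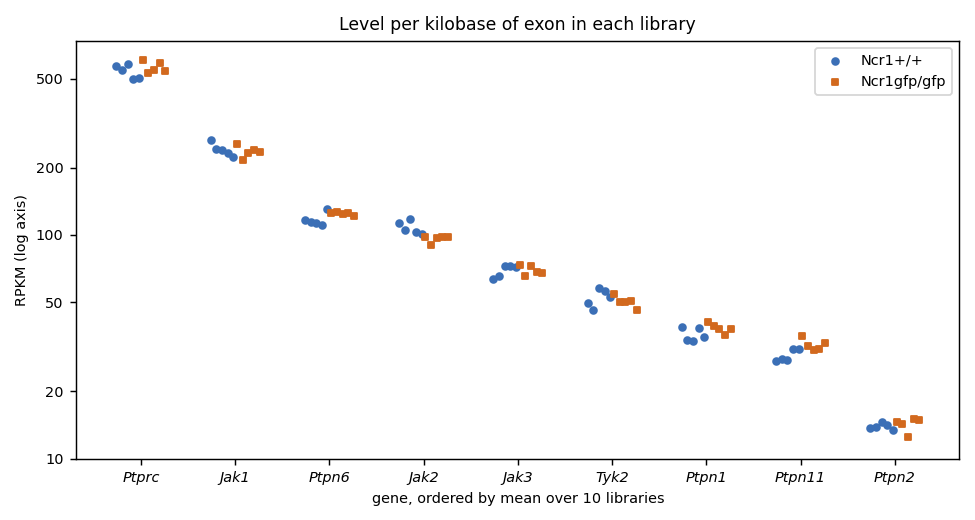
Level of each gene as RPKM on a log axis, with genes ordered by their mean over 10 libraries. Circles are the 5 Ncr1+/+ and squares the 5 Ncr1gfp/gfp libraries, replicates 1 to 5 from left to right; *Ptprc* lies highest at 496 to 608 RPKM, *Ptpn2* lowest at 12.5 to 15.0 RPKM, and the genotypes lie close together for every gene.

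Among the kinases, the means of the transcripts' shares came in the same order in both genotypes. *Jak1* made up 51.2% ± 2.15 of the summed RPKM of the 4 JAKs in Ncr1+/+ and 52.2% ± 0.766 in Ncr1gfp/gfp ILC1s (SD, n = 5 each). *Jak2* made up 22.9% ± 0.723 and 21.3% ± 0.586, *Jak3* 14.7% ± 1.22 and 15.4% ± 0.430, and *Tyk2* 11.2% ± 1.01 and 11.1% ± 0.522 in Ncr1+/+ and Ncr1gfp/gfp ILC1s. Among the 4 cytosolic phosphatases, *Ptpn6* made up 59.7% ± 1.85 and 59.5% ± 1.15 of the summed RPKM in Ncr1+/+ and Ncr1gfp/gfp ILC1s.

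The comparison of the genotypes asks whether loss of NKp46 changed the transcripts of the kinases that pass on cytokine signals or of the phosphatases that switch them off. The differences were small. Below, log2FC is the log2 fold change of Ncr1gfp/gfp against Ncr1+/+ ILC1s. None of the 9 genes passed the test across all genes (edgeR quasi-likelihood test, adjusted p under 0.05), and 0 did so with DESeq2, limma-voom or edgeR's likelihood ratio test. At an unadjusted p under 0.05, 2 of the 9 genes passed, *Jak2* lower and *Ptpn11* higher in Ncr1gfp/gfp ILC1s. Of all tested genes, 1.35% had an adjusted p under 0.05, 0.733% were called at that p with a fold change above 1.5 or below 0.7, and 11.4% had an unadjusted p under 0.05. The 9 genes all had a mean above 100 CPM, and among the 2409 tested genes at that level 16.5% had an unadjusted p under 0.05. In bulk libraries of sorted cells, a lower share of cells that express a gene and less RNA per cell cannot be told apart.

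The libraries of a genotype lay close together. Intervals of the fold change reflect the spread between these libraries, which may be technical, and do not bound a difference between mice. The SD of log2 CPM within a genotype had a median of 0.085 over the 9 genes, against 0.096 over all tested genes with a mean of at least 100 CPM. The 95% confidence interval of the fold change lay inside the limits of 0.7 and 1.5 for all 9 genes. The lowest bound was a fold of 0.827, for *Jak2*, and the highest was 1.22, for *Ptpn11*.

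**Figure D2:**
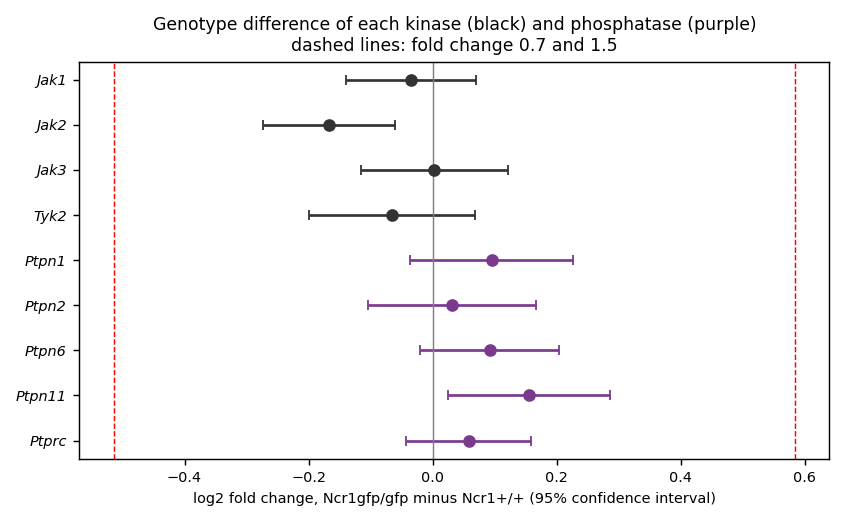
Log2 fold change (log2FC) of each gene in Ncr1gfp/gfp against Ncr1+/+ ILC1s (x axis) with its 95% confidence interval from the edgeR fit, kinases in black and phosphatases in purple. The dashed lines mark fold changes of 0.7 and 1.5, and no interval reaches them; the intervals of *Jak2* and *Ptpn11* do not include 0.

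*Jak2* encodes the kinase that pairs with TYK2 on the IL-12 receptor and serves the interferon-γ receptor. It maps to chromosome 19 (29326293 to 29387570, plus strand), in the coordinates of the deposited table, whose build the table does not name. Its CPM was 569, 531, 595, 521 and 509 in Ncr1+/+ replicates 1 to 5, whereas Ncr1gfp/gfp replicates 1 to 5 had 493, 457, 487, 495 and 494. Every Ncr1gfp/gfp library was therefore below every Ncr1+/+ library, with 495 CPM as the highest of the former and 509 CPM as the lowest of the latter. The means were 545 ± 35.6 and 485 ± 16.0 CPM (SD, n = 5 each), a log2FC of -0.17 ± 0.051 (SE) and a level at 89.1% of Ncr1+/+. The p-value was 0.00389 before and 0.129 after adjustment over all tested genes (edgeR quasi-likelihood test). A two-sided exact permutation test gave an unadjusted p of 0.00794, the smallest that 5 libraries against 5 allow. Any gene without overlap has that value, so it restates the separation of the libraries.

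*Jak2* was the only one of the 9 genes without overlap between the genotypes, whereas 3.11% of all tested genes, and 4.9% of those with at least 100 CPM, had none. It stayed without overlap under scaling by total count, by upper quartile or by RLE. Without Ncr1+/+ replicate 3, its highest library, the log2FC was -0.13 with an adjusted p of 0.324, and without Ncr1gfp/gfp replicate 3, the library highest in T cell and hepatocyte markers, it was -0.17 with an adjusted p of 0.193 (edgeR).

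*Jak1* encodes the kinase shared by the receptors for IL-2, IL-7, IL-15, interferons and the IL-6 family, and maps to chromosome 4 (100824579 to 100937887, minus strand). Ncr1+/+ replicates 1 to 5 had 1412, 1288, 1274, 1234 and 1186 CPM, and Ncr1gfp/gfp replicates 1 to 5 had 1349, 1150.2, 1231, 1271 and 1242 CPM. The genotypes overlapped over most of their range. The log2FC was -0.035 ± 0.050 (SE; edgeR adjusted p = 0.872) and took a value of 0.0022 without Ncr1+/+ replicate 1, so that it had no stable direction. The end of *Jak1* overlaps *Raver2*, on the opposite strand, by 397 bases, and *Raver2* had at most 1.91% of the CPM of *Jak1* in any library, though reads of *Jak1* in the overlap can be among them, since the kit does not mark strand.

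*Jak3*, whose protein binds the common gamma chain and which is largely restricted to blood cells, maps to chromosome 8 (74200282 to 74214476, plus strand). It had 259 to 297 CPM in Ncr1+/+ and 268 to 299 CPM in Ncr1gfp/gfp ILC1s, with means of 283 ± 17.9 and 283 ± 13.5 CPM (SD, n = 5 each). The genotypes could not be distinguished, with a log2FC of 0.0029 (95% confidence interval -0.12 to 0.12). *Insl3* is listed inside *Jak3* on the same strand, and reads on shared exons are left out by the default of HTSeq. *Insl3* itself had at most 2.48 CPM.

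*Tyk2*, the partner of JAK2 on the IL-12 receptor and of JAK1 on the type I interferon receptor, maps to chromosome 9 (20908512 to 20935719, minus strand). It had 226 to 282 CPM in Ncr1+/+ and 225 to 264 CPM in Ncr1gfp/gfp ILC1s. Its log2FC was -0.065 ± 0.065 (SE; edgeR adjusted p = 0.795), and the ranges overlapped. Of the 4 kinases, 3 had a log2FC below 0, and their median was -0.050, against 0.0027 over all tested genes.

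**Figure D3:**
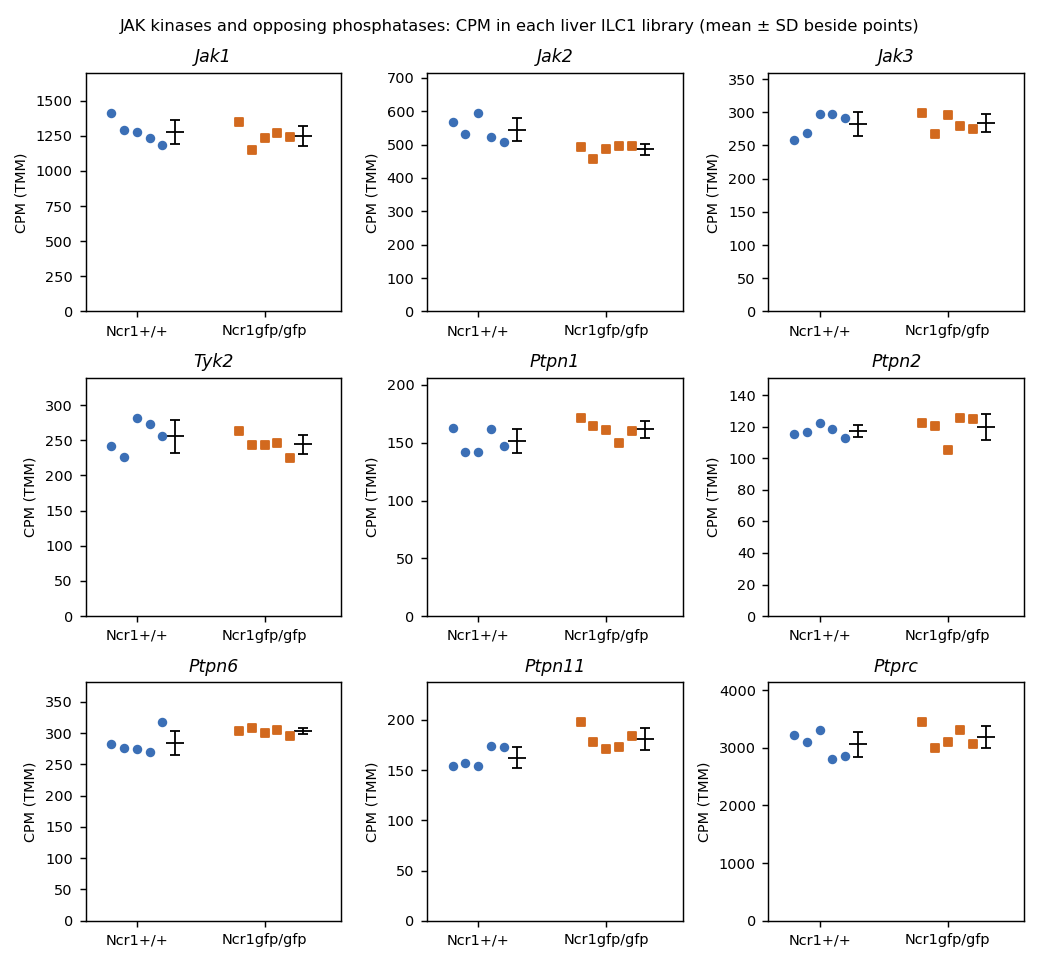
CPM of each of the 9 genes (y axes from 0) in each library, circles for Ncr1+/+ and squares for Ncr1gfp/gfp ILC1s, replicates 1 to 5 from left to right, with mean ± SD (n = 5) beside the points. The groups are separate only for *Jak2*, with 509 to 595 CPM in Ncr1+/+ and 457 to 495 CPM in Ncr1gfp/gfp ILC1s; for *Ptpn6* and *Ptpn11* the Ncr1gfp/gfp points lie mostly above.

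All 5 phosphatases had a log2FC above 0, between 0.031 and 0.16 with a median of 0.092, where 50.7% of all tested genes had one above 0. Each of the 5 was above 0 in all 20 alternative fits as well, but these reuse the same libraries and add no separate support. None of the 5 passed the test in any of them. The 5 genes share libraries and scaling, so their common direction is not 5 separate results.

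*Ptpn11* (chromosome 5, 121580542 to 121641406, minus strand) encodes SHP-2, a phosphatase with a pair of SH2 domains that besides acting on JAK and STAT proteins promotes RAS and ERK signaling. Ncr1+/+ replicates 1 to 5 had 154, 157, 154, 174 and 173 CPM, and Ncr1gfp/gfp replicates 1 to 5 had 198, 178, 171, 173 and 184 CPM. The groups overlapped only through Ncr1+/+ replicates 4 and 5, which reached the level of the lowest Ncr1gfp/gfp libraries, replicates 3 and 4. The means were 162 ± 10.4 and 181 ± 10.7 CPM (SD, n = 5 each), a log2FC of 0.16 ± 0.063 (SE). The p-value was 0.0220 before and 0.315 after adjustment in edgeR, and 0.0476 in the two-sided exact permutation test. Without Ncr1gfp/gfp replicate 1, the highest library, the log2FC was 0.12 with an adjusted p of 0.504.

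*Ptpn6* (chromosome 6, 124670725 to 124688727, minus strand) encodes SHP-1, the phosphatase that inhibitory receptors of NK cells and ILC1s recruit. Ncr1+/+ replicates 1 to 5 had 283, 276, 274, 269.5 and 317 CPM, and Ncr1gfp/gfp replicates 1 to 5 had 303, 309, 301, 304 and 296 CPM. The Ncr1gfp/gfp libraries were closely grouped and lay above all Ncr1+/+ libraries except replicate 5, which was the highest of all 10. The log2FC was 0.092 ± 0.054 (SE; edgeR adjusted p = 0.558; two-sided exact permutation test, p = 0.0556). All overlap came from Ncr1+/+ replicate 5, so leaving that library out had to remove it. In that setting 4.25% of all tested genes had no overlap, and *Ptpn6* had a log2FC of 0.14 with an adjusted p of 0.314 (edgeR).

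*Ptprc* (chromosome 1, 139959436 to 140071882, minus strand) encodes CD45, which removes the inhibitory phosphate from Src-family kinases and also acts on JAKs. Ncr1+/+ replicates 1 to 5 had 3219, 3097, 3302, 2812 and 2851 CPM, and Ncr1gfp/gfp replicates 1 to 5 had 3442, 2990, 3099, 3312 and 3069 CPM. The ranges overlapped widely, with a log2FC of 0.058 ± 0.049 (SE; edgeR adjusted p = 0.746). Counts per gene do not show which of the CD45 isoforms, made by alternative splicing, the transcripts were.

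*Ptpn1* and *Ptpn2* encode the closely related PTP1B, which acts on JAK2 and TYK2, and TC-PTP, which acts on JAK1 and JAK3. *Ptpn1* (chromosome 2, 167757827 to 167804885, plus strand) had 142 to 162 CPM in Ncr1+/+ and 150.2 to 172 CPM in Ncr1gfp/gfp ILC1s, a log2FC of 0.095 ± 0.063 (SE; edgeR adjusted p = 0.630). *Ptpn2* had 113 to 123 CPM in Ncr1+/+ and 105 to 126 CPM in Ncr1gfp/gfp ILC1s, where replicate 3 was the lowest of all 10 libraries. Its log2FC was 0.031 ± 0.065 (SE; edgeR adjusted p = 0.923). The ranges of both genes overlapped between the genotypes.

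Ratios within a library do not depend on how libraries are scaled, so 4 ratios of partner or sister genes were compared. *Jak1* transcripts were 3.13 to 4.21 times as abundant as *Jak3* in Ncr1+/+ and 3.21 to 3.51 times in Ncr1gfp/gfp libraries, by RPKM. *Jak2* was 1.84 to 2.27 times as abundant as *Tyk2* in Ncr1+/+ and 1.80 to 2.12 times in Ncr1gfp/gfp libraries. *Ptpn1* exceeded *Ptpn2* by 2.30 to 2.82 times in Ncr1+/+ and 2.38 to 3.05 times in Ncr1gfp/gfp libraries. *Ptpn6* exceeded *Ptpn11* by 3.58 to 4.24 times in Ncr1+/+ and 3.54 to 4.06 times in Ncr1gfp/gfp libraries. Each ratio overlapped between the genotypes. The differences of the mean log2 ratio, Ncr1gfp/gfp minus Ncr1+/+, were -0.038, -0.10, 0.067 and -0.062 in this order, with two-sided exact permutation p-values of 0.722, 0.198, 0.437 and 0.254 and a lowest value of 0.508 after adjustment over the 4 ratios by the Benjamini-Hochberg method.

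**Figure D4:**
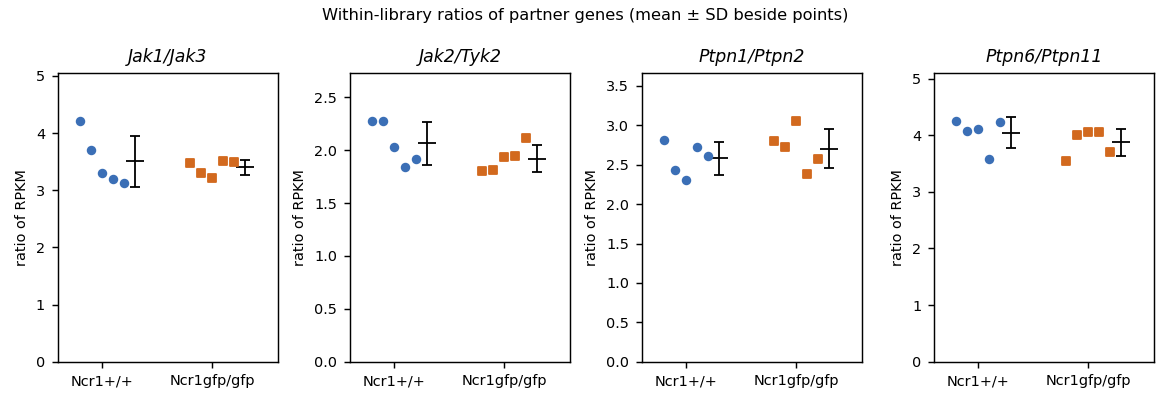
RPKM ratio of each gene pair within each library (y axes from 0), circles for Ncr1+/+ and squares for Ncr1gfp/gfp ILC1s, replicates 1 to 5 from left to right, with mean ± SD (n = 5). All 4 ratios overlap between the genotypes, and *Jak1*/*Jak3* is highest in Ncr1+/+ replicate 1 at 4.21.

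The rest of the pathway was described by lists written from knowledge of JAK-STAT signaling and of tyrosine phosphatases, with earlier results of these data known. Among 25 chains of receptors that signal through JAKs, 21 were tested, with a median log2FC of -0.073. Of these, 2 fell and 0 rose in Ncr1gfp/gfp ILC1s (edgeR, adjusted p under 0.05), where 1.35% of all tested genes had such a p. At an unadjusted p under 0.05, 1 was higher and 6 were lower, where 11.4% of all tested genes had such a p. Among those with a mean of at least 100 CPM it was 16.5%. The chains that fell were *Il2ra*, with a log2FC of -1.24, and *Il7r*, with -0.97. *Il2rb*, the beta chain through which JAK1 binds the IL-2 and IL-15 receptors, is named after its values were seen, since they did not overlap, at 3724 ± 142 CPM in Ncr1+/+ and 3424 ± 113 CPM in Ncr1gfp/gfp ILC1s (SD, n = 5 each). Its log2FC of -0.12 had an adjusted p of 0.117 in edgeR. Of all tested genes with a mean of at least 100 CPM, 4.9% likewise had no overlap. *Il10ra*, also named after its values were seen, had the smallest p among the chains that did not pass. Its log2FC was -0.29, with an adjusted p of 0.0501 in edgeR, and its values overlapped. For the beta chain of the IL-2 receptor, the paper reports comparable protein expression on the cells of both genotypes. It reports lower IL-2Rα and IL-7Rα protein on Ncr1gfp/gfp ILC1s, and less STAT5 phosphorylation in them after IL-2 or IL-7. IL-15Rα protein was higher on them in the paper, whereas *Il15ra* transcripts had a log2FC of 0.093 (edgeR adjusted p = 0.849). In a fit on 2 fewer libraries, without Ncr1+/+ replicate 1 and Ncr1gfp/gfp replicate 3, the pair highest in hepatocyte markers, *Il7r* had a similar log2FC of -0.92 and an adjusted p of 0.055 (edgeR).

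Of the 7 STAT genes, which encode the transcription factors that JAKs phosphorylate, none passed the edgeR test and none had an unadjusted p under 0.05. Their median log2FC was -0.075, and *Stat5a*, with the smallest p, had a log2FC of -0.18 (edgeR adjusted p = 0.477). Among the 16 tested regulators of JAK-STAT signaling, of the SOCS, PIAS, SH2B and STAM families, *Socs3* fell, at a log2FC of -0.76 (edgeR adjusted p = 0.00404), and none rose. The median of this list was 0.019.

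Among 33 other classical tyrosine phosphatases, 16 were tested and *Ptpn4* rose. *Ptpn4* encodes a cytosolic phosphatase with FERM and PDZ domains. Ncr1+/+ replicates 1 to 5 had 223, 261, 270, 262 and 271 CPM, and Ncr1gfp/gfp replicates 1 to 5 had 332, 314, 293, 309 and 293 CPM. Every Ncr1gfp/gfp library was above every Ncr1+/+ library, and the log2FC was 0.26 ± 0.060 (SE; edgeR adjusted p = 0.0295), below the fold change needed for a call. It no longer passed when a single library was left out in 6 of 10 cases, namely Ncr1gfp/gfp replicates 1, 2 and 4 and Ncr1+/+ replicates 1, 3 and 4, with adjusted p-values of up to 0.0800. The log2FC in these 6 and the other 4 fits lay between 0.21 and 0.28. Nor did it pass with a block for the replicate number, with a log2FC of 0.26 and an adjusted p of 0.0751, or without the pair of libraries highest in hepatocyte markers, with 0.23 and 0.0847. The median log2FC of the 16 genes was 0.040.

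Inhibitory receptors and adaptors that dock SHP-1 and SHP-2 were tested for 13 of 18 listed genes, and none passed in edgeR. An unadjusted p under 0.05 was found for 2 of them, and for 11.4% of all tested genes. *Gab3*, an adaptor that binds SHP-2, had the smallest p, with 39.8 ± 4.11 CPM in Ncr1+/+ and 32.4 ± 3.30 CPM in Ncr1gfp/gfp ILC1s (SD, n = 5 each) and an adjusted p of 0.198 in edgeR. Of 13 tested partners of CD45 and Src-family kinases, none passed in edgeR and 2 had an unadjusted p under 0.05, again beside 11.4% of all tested genes. *Pag1*, which encodes a membrane adaptor that CD45 acts on and that holds the kinase CSK, had 341 ± 31.6 and 396 ± 33.3 CPM in Ncr1+/+ and Ncr1gfp/gfp ILC1s (SD, n = 5 each), with an adjusted p of 0.144 in edgeR. The medians of these lists were 0.0084 and -0.0057.

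**Figure D5:**
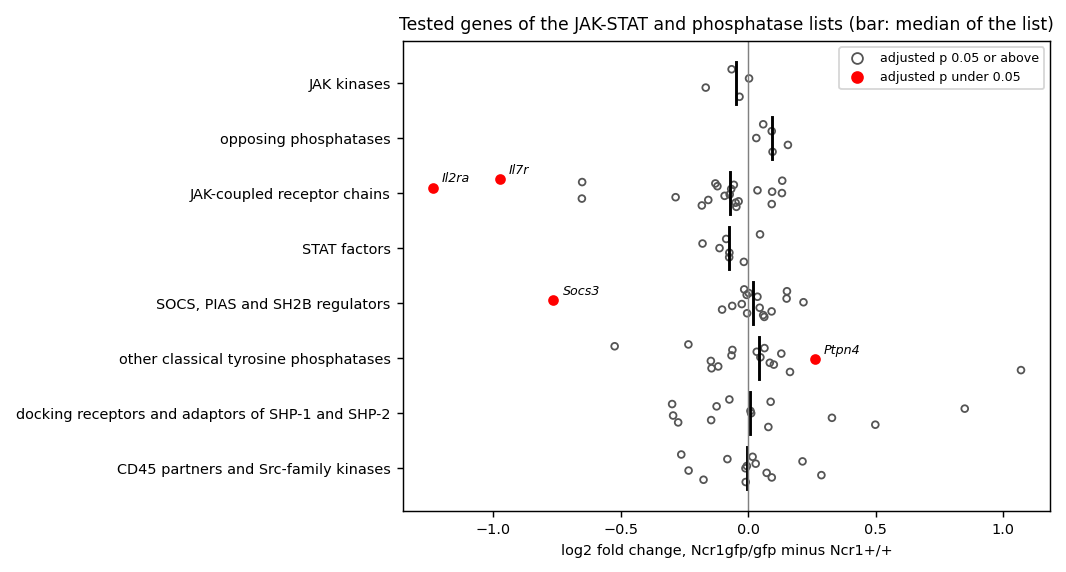
Log2 fold change in Ncr1gfp/gfp against Ncr1+/+ ILC1s (x axis) of every tested gene in 8 lists, with a bar at each list's median. Filled points have an adjusted p under 0.05 in edgeR and are named, namely *Il2ra*, *Il7r*, *Socs3* and *Ptpn4*; all 4 kinases and all 5 phosphatases described are open points between -0.17 and 0.16.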

How the data were processed

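Per the labels and the study's methods, total RNA of sorted liver ILC1s was amplified from 2 ng with the SMART-Seq v4 kit and read for 51 cycles from a single end. The authors trimmed the reads with Trimmomatic and FASTP, mapped them with STAR to a genome given as mm10, counted them per gene with HTSeq at default parameters and deposited the counts without normalization. The coordinates of the table differ from those of GRCm38. The kit does not mark strand, so reads of a gene and of an antisense partner cannot be told apart. The default of HTSeq counts only reads on the strand of a gene, so that, if it was used, reads from the other strand were left out or given to a gene there, and CPM and RPKM are relative to the reads counted. Reads at several places are left out, so near-identical copies can be undercounted.

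From the counts, genes were filtered with filterByExpr, scaled by TMM and compared between the genotypes by a quasi-likelihood fit (edgeR 4.0.16 under R 4.3.3, no covariates) with Benjamini-Hochberg adjustment over 11463 genes. The F statistic of each gene gave the standard error (SE) and 95% confidence interval of its log2 fold change (log2FC). Single values were compared with two-sided exact permutation tests. Alternatives used DESeq2 1.42.0, limma-voom (limma 3.58.1), other scalings and filters, a replicate block, and fits without libraries. The table lists no mitochondrial genes under that prefix, so the scaling without *Rn45s* left out that gene alone.

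Library totals of 15796253 to 22623133 put 3 counts at 0.132 to 0.190 CPM, and each of the 9 genes had at least 1930 counts in each library. Such floors cover counting error only, since PCR reads without molecular identifiers are not independent molecules. No pair of libraries of a genotype agreed within sampling noise. Named genes are the 9 kinases and phosphatases, *Ncr1*, listed genes with an adjusted p under 0.05 or, in lists without any, the smallest p, and for each of the 9 the gene most correlated with it; others are marked. The 9 genes and the lists were chosen with earlier results of these data known.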

Additional observations from a re-analysis of the deposited data

Results flagged for a closer look

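Values in which 1 library stood far from the other 4 of its genotype, by Dixon's gap ratio, were found in 4 of 30 groups examined (CPM of the 9 genes and *Ncr1*, the 4 ratios and the total count, in each genotype). About 1 in 20 such groups, here 1.5, passes by chance. *Jak2* was 457 CPM in Ncr1gfp/gfp replicate 2, below the next library of that genotype at 487 CPM. *Ptpn2* was 105 CPM in Ncr1gfp/gfp replicate 3, against 120.4 CPM in the next, and this library was also the highest in hepatocyte and T cell markers. *Ptpn6* was 317 CPM in Ncr1+/+ replicate 5, against 283 CPM in the next. The log2 ratio of *Ptpn6* to *Ptpn11* by RPKM was 1.84 in Ncr1+/+ replicate 4, against 2.03 in the next. The reason for any of these values was not tested.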

How the results depend on the processing

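None of the 9 genes passed an adjusted p of 0.05 in any of 20 alternative fits, in which the adjusted p of *Jak2* lay between 0.0570, with DESeq2, and 0.324, and that of *Ptpn11* between 0.194 and 0.517. *Jak2*, *Tyk2* and the 5 phosphatases kept their direction in all 20. The log2 fold change of *Jak1*, between -0.064 and 0.0022 without 1 library, turned to 0.0022 without Ncr1+/+ replicate 1 and 0.0065 without the pair of libraries highest in hepatocyte markers. That of *Jak3*, between -0.028 and 0.023 without 1 library, turned to -0.021 with limma-voom, -0.045 without that pair, and -0.018, -0.014, -0.028 and -0.017 without Ncr1gfp/gfp replicate 1, Ncr1gfp/gfp replicate 3, Ncr1+/+ replicate 1 and Ncr1+/+ replicate 2. The difference of the *Jak1*/*Jak3* log2 ratio turned to 0.050 without that pair. Without 1 library it lay between -0.077 and 0.030, and the higher value, without Ncr1+/+ replicate 1, reversed its direction. That of *Ptpn6*/*Ptpn11* lay between -0.11 and -0.030 and passed the exact permutation test, at p = 0.0476, only without Ncr1+/+ replicate 4.

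Over all genes, 84 were called, against 131 without a filter on low counts, 138 with the likelihood ratio test, 23 at an absolute log2 fold change above 1, and 60 to 98 without 1 library. An adjusted p under 0.05 was found for 155 genes, against 299 with DESeq2, 264 both without a filter and with the likelihood ratio test, 95 without the pair of libraries, and 100 to 160 without 1 library, the lowest being 100 without Ncr1+/+ replicate 3 and 102 without Ncr1+/+ replicate 1. Of the other listed genes, 4 had one, against 2 without the pair and 3 to 5 without 1 library. Of the 9 genes, 1 did not overlap between genotypes, and 1 to 2 did not when 1 library was left out, which can only remove overlap. The share without overlap over all tested genes was 3.11% with all libraries and 4.13% to 4.82% without 1 library. The order by RPKM was the same without any 1 library. The causes were not tested.

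The replicate numbers are shared by the genotypes but did not pair the libraries. The correlation of same-numbered libraries in their deviations from the genotype mean was between -0.017 and 0.044, and 1 of 10 libraries correlated best with its own number. With the replicate number as a block, *Jak2* had a log2 fold change of -0.17 and an adjusted p of 0.173 in edgeR. In that fit 4 other listed genes passed, *Ptpn4* not among them, so they are not the same 4 as in the main fit. The *Jak2*/*Tyk2* ratio differed by -0.10 (exact sign-flip permutation test, p = 0.437).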

Other observations

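For each of the 9 genes, the tested gene most like it over the 10 libraries, by Pearson's r of log2 CPM with the genotype means taken off, was *Phf11b* for *Jak1*, *Rdm1* for *Jak2*, *Slc35b2* for *Jak3*, *0610037L13Rik* for *Tyk2*, *Bbs12* for *Ptpn1*, *Wrn* for *Ptpn2*, *Tmco6* for *Ptpn6*, *Supt4b* for *Ptpn11* and *Snrpb2* for *Ptprc*. These r lay between 0.921 and 0.980 and Spearman's rho between 0.745 and 0.976. Without the 2 libraries farthest from the median of the gene, r for *Ptpn6* fell to 0.408 and the other values were 0.788 or more. Each is the highest of all tested genes and shares the libraries and their scaling, so no p-value is given.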
